A study of Caenorhabditis elegans with 3 samples.

Results

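The loci described here lie at the left end of the Caenorhabditis elegans X chromosome, within the first 6 Mb. They were chosen as the rows of the deposited expression table that stand on X, carry a gene identifier, start below 6 Mb and reach an average level of 1 FPKM or more across the genotypes. FPKM counts sequenced fragments relative to the length of the transcript and the size of the library, so it is a level already corrected for transcript length. Of 1821 such X loci with an identifier, 1042 passed the minimum level and 779 did not. Over the whole genome, 15628 of 40427 loci with an identifier passed, among them 1003 in the middle of X (6 to 12 Mb), 894 at its right end and 12689 on the autosomes. No difference between genotypes was a threshold of the choice. Because the level is an average over the genotypes, a locus can pass through a high value in 1 genotype alone.

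Poly(A) RNA of embryos was sequenced in 3 genotypes. The wild type was the N2 strain, with 5 replicates. The 8rex deletion was strain TY5827, also with 5 replicates, which carries deletions at 8 recruitment elements on X: rex-32 by the allele y572, rex-33 by y743, rex-14 by y738, rex-47 by y671, rex-8 by y737, rex-43 by y741, rex-48 by y742 and rex-35 by y740. The DCC mutant, with 3 replicates, was strain TY0810, sdc-2(y93, RNAi), fed bacteria that express sdc-2 double-stranded RNA. Wild type and the 8rex deletion were fed HT115 bacteria with the empty vector pL4440, so the food differs between the DCC mutant and both other genotypes. The targeted gene sdc-2, which lies in the middle of X, had 18.04 FPKM in wild type, 16.01 in 8rex deletion embryos and 10.98 in the DCC mutant. Replicates of mixed-stage embryos, most of them before the comma stage, numbered 2 in each genotype. The remaining replicates were of older embryos, most of them at the 3-fold stage: 3 of wild type, 3 of the 8rex deletion and 1 of the DCC mutant, or 60%, 60% and 33.3% of the replicates. The deposited table holds a single combined value per genotype, so every FPKM below is the authors' value for a genotype, without a replicate spread, and depth per library is unknown.

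In C. elegans, hermaphrodites have a pair of X chromosomes and males a single one. The dosage compensation complex (DCC), a condensin-containing complex, binds both hermaphrodite X chromosomes and lowers their transcription. SDC-2 is the protein that directs the complex to X, and loss of sdc-2 keeps it from binding. The complex enters X at recruitment elements on X (rex sites), and strong rex sites form the boundaries of the topologically associating domains (TADs) into which the compensated X is folded. The comparisons therefore ask how loci near the left end of X are expressed in the sdc-2 mutant, and how when 8 of these sites are deleted. Binding of the complex to X is not part of the values described here.

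Among the 1042 loci, 583 (56.0%) held a single protein-coding gene and 331 (31.8%) a single short or long non-coding RNA gene annotated as ncRNA. A further 70 held several genes of which at least 1 is coding, 6 held several non-coding genes, and 24 were pseudogenes. The remainder were 6 snoRNA, 4 miRNA, 3 tRNA, 2 lincRNA and 2 antisense RNA loci and 11 whose identifiers the annotation lacks. Loci annotated as ncRNA made up 31.8% here, 25.7% in the middle of X, 28.0% at the right end and 11.0% on the autosomes. Where a row holds several genes, its value cannot be split between them.

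The ncRNA loci behaved differently from the coding loci in the table itself. Their median exon length was 145 bp, against 1416 bp for single coding loci, and 275 of the 331 were listed at 0 in at least 1 genotype. An exact 0 in such a table can be a failed estimate, so these loci are described only as listed at 0. Of the 331, 60 were above 0 in wild type alone, 80 in the 8rex deletion alone and 28 in the DCC mutant alone. Listed at 0 were 139 in wild type, 117 in 8rex deletion embryos and 187 in the DCC mutant. The autosomal ncRNA loci had a like pattern, with 572, 521 and 902 of 1401 listed at 0 in that order. Among the 56 above 0 in all 3 genotypes, 23 had a higher value in the DCC mutant than in wild type and 33 a lower one. On the autosomes 84 such ncRNA loci were higher and 142 lower. Over all 1042 loci, 316 (30.3%) were listed at 0 somewhere, 163 in wild type, 131 in 8rex deletion embryos and 210 in the DCC mutant. Examples at high levels were ZK470.9 at 0 FPKM in wild type, 354 in 8rex deletion embryos and 0 in the DCC mutant, and T19D2.10 at 158, 60.1 and 0. The single coding loci, of which 23 were listed at 0, therefore carry most of the description that follows.

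In the DCC mutant, the left end of X was expressed at a higher level. The median FPKM of the 583 single coding loci was 14.004 in wild type, 13.2 in 8rex deletion embryos and 21.5 in the DCC mutant. The summed FPKM of all 1042 loci was 40950 in wild type, 42254 in 8rex deletion embryos and 55756 in the DCC mutant, which is 4.51%, 4.56% and 6.03% of the sum over the 15628 loci. Differences were taken as log2(FPKM + 1), a scale that shrinks those of weakly expressed loci. The median difference of DCC mutant minus wild type was 0.43 over all 1042 loci, with quartiles of 0.00 and 0.73, and 0.54 over the single coding loci, a 1.46-fold higher value. Of the 1042 loci, 702 (67.4%) were above 0, 250 below and 90 equal, where 48% of all 15628 loci were above 0. At least 1.5-fold higher were 380 (36.5%), against 17.6% of all loci, and at least 1.5-fold lower were 175 (16.8%), against 18.4%.

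For single coding loci the shares stood further from those of the table. Of the 583, 508 (87.1%) were above 0, with an exact binomial 95% interval of 84.1% to 89.8% that covers counting error over loci only, against 52.4% of all single coding loci. At least 1.5-fold higher were 252 (43.2%), against 17.5%, and at least 1.5-fold lower 27 (4.63%), against 13.9%. The same median was 0.57 in the middle of X and 0.55 at the right end, -0.04 on the autosomes and -0.05 in the first 6 Mb of the autosomes, where 45.1% of 3186 loci were above 0. With 1 value per genotype, no test of these medians could be made.

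**Figure D1:**
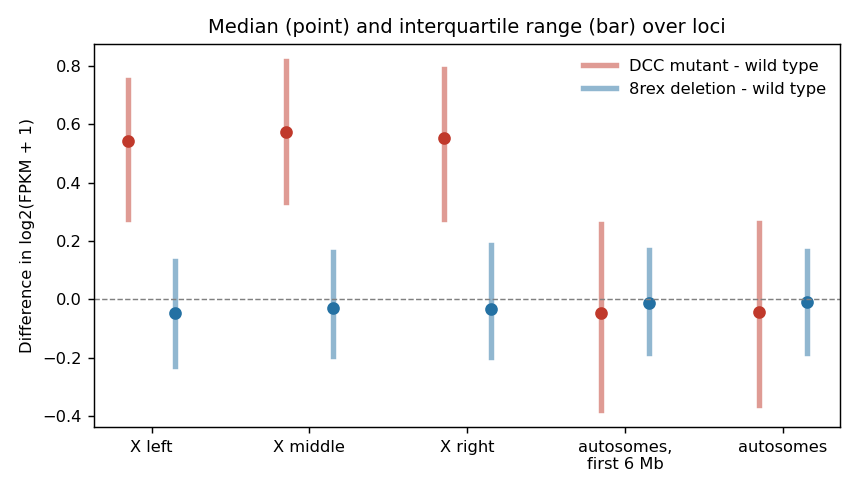
Difference in log2(FPKM + 1) from wild type (vertical axis) over loci with a single coding gene, for the left end, middle and right end of X, the first 6 Mb of the autosomes and all autosomes; points are medians and bars run from the lower to the upper quartile of loci, in red for the DCC mutant and blue for the 8rex deletion. The DCC mutant medians stand at 0.54, 0.57 and 0.55 on X and at -0.05 and -0.04 on the autosomes, and those of the 8rex deletion lie between -0.05 and -0.01.

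The replicates of the DCC mutant held a smaller share of older embryos, and genes of embryonic age differed as well. Of 12 early maternal genes listed, 7 were measured as single-gene loci, and all 7 had a higher value in the DCC mutant, with a summed level of 303 FPKM in wild type, 327 in 8rex deletion embryos and 674 in the DCC mutant. Of 10 late cuticle genes, 6 were measured, all lower in the DCC mutant, with summed levels of 9370, 9609 and 7255 FPKM. Over 12 loci of embryonic tissue markers the sums were 693, 669 and 656 FPKM, and none of these markers was at 0. The part of embryo age in the differences on X was not tested, and fewer cells of a type and less RNA per cell cannot be told apart in whole embryos. In the wild type and 8rex deletion, with equal numbers of both collections, the maternal and cuticle sums lay closer together.

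Read as ratios without a pseudocount, the 560 single coding loci above 0 in all 3 genotypes had a median of 1.49 for DCC mutant over wild type, with quartiles of 1.25 and 1.73. The ratio lay between 1.25 and 2 at 337 (60.2%) and at 2 or more at 81 (14.5%). It lay between 0.8 and 1.25 at 101, between 0.5 and 0.8 at 24 and below 0.5 at 17. The DCC mutant had the highest of the 3 values at 484 (86.4%), the 8rex deletion at 45 and wild type at 31. The DCC mutant was highest at 87.1% of such loci in the middle of X, 84.8% at the right end and 37.4% on the autosomes. The increment was thus spread over most coding loci rather than carried by a few with large ratios.

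**Figure D2:**
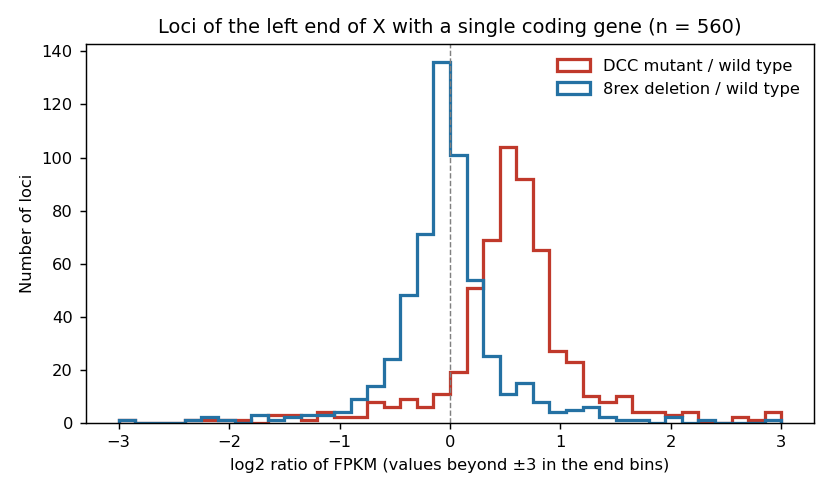
Number of single coding loci at the left end of X (vertical axis) by log2 ratio of FPKM to wild type (horizontal axis), in red for the DCC mutant and blue for the 8rex deletion, over 560 loci above 0 in all genotypes. As ratios the DCC mutant has a median of 1.49 and the 8rex deletion of 0.97.

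Within the left end, the ratio depended little on how strongly a gene was expressed, while its spread did. In 4 groups of 140 loci by mean level, the median log2 ratio of DCC mutant over wild type was 0.51 in the lowest group (1.06 to 5.63 FPKM), 0.60 and 0.58 in the middle groups and 0.58 in the highest (46.9 to 1267 FPKM). The width between quartiles narrowed from 1.08 to 0.62, 0.38 and 0.27. Above 0 were 106, 122, 135 and 137 of the 140. At the same level limits, the medians were 0.77, 0.68, 0.58 and 0.56 in the middle of X. They were 0.61, 0.67, 0.63 and 0.54 at its right end and -0.22, -0.02, 0.004 and -0.02 on the autosomes. The autosomal quartiles also drew together, from -0.94 and 0.47 in the lowest group to -0.20 and 0.17 in the highest. In 4 equal groups of the left-end loci by exon length the medians were 0.58, 0.57, 0.53 and 0.62. Genes on the forward strand (262) had a median of 0.58 and those on the reverse strand (298) 0.57.

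Among the 140 loci of the highest group, 121 had a ratio of 1.25 or more, and the range was 0.784 to 2.35. Ratios of at least 2 were seen at 3 of them. T23F2.3 had 117 FPKM in wild type, 124 in 8rex deletion embryos and 236 in the DCC mutant, and zfp-3, a zinc finger gene, had 68.2, 68.0 and 148. F46G11.4 had 37.8, 47.3 and 89.0. The value of the DCC mutant was below that of wild type at 3 others. These were ZC13.1 with 114 FPKM in wild type, 11.1 in 8rex deletion embryos and 89.7 in the DCC mutant, the cuticle collagen dpy-3 with 381, 365 and 362, and the claudin-like clc-7 with 55.4, 40.9 and 55.4, whose values differ only past the digits given.

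**Figure D3:**
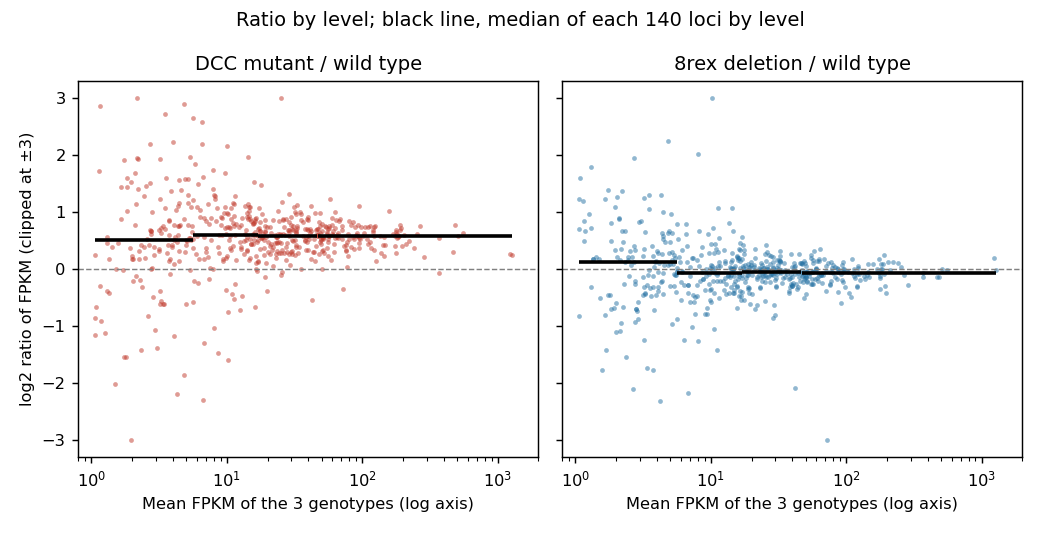
Log2 ratio of FPKM to wild type, clipped at ±3, against the mean FPKM of the genotypes (log axis) for the 560 single coding loci above 0 in all 3 genotypes; each point is a locus and each black line the median of 140 loci. In the DCC mutant the median stays between 0.51 and 0.60 while the points draw together towards high levels.

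The 10 loci of highest level had several kinds of gene. The locus rpl-11.2/AH9.3, which holds a ribosomal protein gene of the large subunit, had 1658 FPKM in wild type, 1531 in 8rex deletion embryos and 2365 in the DCC mutant. The pdi-2 locus, with a protein disulfide isomerase that folds collagens, had 1279, 1279 and 1790. The locus of acn-1 and apl-1, which encode an angiotensin-converting-enzyme-like protein and the amyloid precursor protein relative of the worm, had 971, 1090 and 1658. In each of these the DCC mutant stood above both other genotypes, which lay close to each other. The actin gene act-4 (chrX:4960621-4964413 of build ce11, forward strand) had 1198, 1179 and 1423 FPKM, and the collagen col-165 had 1102, 1258 and 1319. T03G6.1 had 471, 466 and 730 FPKM, the lipid-binding protein locus lbp-1/lbp-3 had 505, 436 and 780, and the pseudogene WBGene00023401 had 382, 286 and 894. The ratios to wild type of the actin and collagen genes, 1.19 in the DCC mutant for act-4 and 1.197 for col-165, lay below the median of the coding loci.

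The authors' deposited table gives a p-value for 562 of the 1042 loci in the comparison of DCC mutant and wild type. Of these, 20 (3.56%) had a p under 0.05 in the authors' deposited table, where 2.07% of all tested loci did. All 20 had the higher value in the DCC mutant and none the lower, where higher calls made up 1.39% and lower calls 0.684% of all tested loci. Single coding genes made up 15 of the 20 in the authors' deposited table, out of 451 tested, against 2.05% of all tested single coding loci. In the middle of X the authors' deposited table gives 23 of 560, at the right end 22 of 473 and on the autosomes 132 of 7914 (1.67%). The median of the authors' p over the tested loci was 0.353 at the left end of X and 0.716 on the autosomes. No locus of the left end passed a q of 0.05 in the authors' deposited table, so the members below are named for a p that does not hold after the authors' correction.

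**Figure D4:**
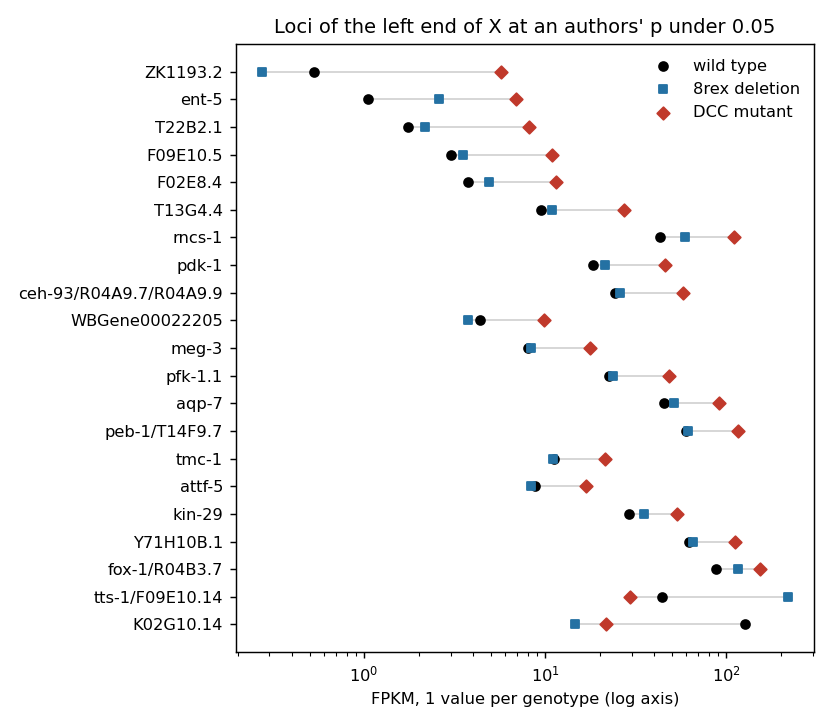
FPKM (log axis) of wild type (black), the 8rex deletion (blue) and the DCC mutant (red), 1 value per genotype, for the loci of the left end of X named by p in the authors' deposited table in either comparison. The DCC mutant is the highest genotype in every row drawn except tts-1/F09E10.14 and K02G10.14, and C07A12.2 is not drawn because wild type is listed at 0.

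Several of the 20 encode kinases, channels and metabolic enzymes. The phosphoinositide-dependent kinase gene pdk-1 of insulin signalling (chrX:1321344-1327986, forward strand) had 18.5 FPKM in wild type, 21.3 in 8rex deletion embryos and 45.9 in the DCC mutant, a ratio of 2.49 with p = 0.02015 in the authors' deposited table. The glycolytic phosphofructokinase gene pfk-1.1 (chrX:2940872-2945485) had 22.4, 23.6 and 48.0 FPKM, a ratio of 2.14 with p = 0.0139 in the authors' deposited table. The salt-inducible-kinase relative kin-29 (chrX:2843922-2852438), known for body size and chemoreceptor expression, had 29.1, 35.01 and 53.4 FPKM. At each of these kinase or enzyme genes the DCC mutant was well above both other genotypes, and the 8rex deletion was slightly above wild type. The aquaglyceroporin aqp-7 had 45.5, 51.6 and 90.7 FPKM. The channel-like gene tmc-1 had 11.1, 11.1 and 21.4 FPKM, and the nucleoside transporter gene ent-5 had 1.05, 2.58 and 6.92.

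Regulators of transcription and RNA formed another group of the 20. The AT-hook gene attf-5 had 8.78 FPKM in wild type, 8.37 in 8rex deletion embryos and 16.8 in the DCC mutant. The locus of the DNA-binding protein gene peb-1, which acts in the pharynx, had 59.7, 61.5 and 116 FPKM, and the homeobox locus ceh-93/R04A9.7/R04A9.9 had 24.4, 26.0 and 57.5. In these genes wild type and the 8rex deletion lay close together and the DCC mutant stood apart. The non-coding RNA rncs-1, which is known to inhibit Dicer, had 43.2, 59.6 and 110 FPKM, and meg-3, a gene of germ granules, had 8.03, 8.31 and 17.7. Genes named only by their cosmid made up most of the remaining loci, among them Y71H10B.1 with 62.1, 65.6 and 112 FPKM and T13G4.4 with 9.46, 10.8 and 27.4. T22B2.1, F02E8.4, F09E10.5, ZK1193.2 and the pseudogene WBGene00022205 were below 12 FPKM in every genotype. Of these, ZK1193.2 had 0.526, 0.273 and 5.70 FPKM and met the minimum level through the DCC mutant. C07A12.2 was listed at 0 in wild type, with 4.52 FPKM in 8rex deletion embryos and 27.5 in the DCC mutant.

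The X signal that sets sexual fate is counted from X-linked genes, and 2 of the 7 genes listed for it and for dosage compensation were members. The locus of fox-1, an RNA-binding protein that acts on splicing of the master switch gene xol-1, had 87.9 FPKM in wild type, 116 in 8rex deletion embryos and 153 in the DCC mutant, with p = 0.044 in the authors' deposited table. The locus ceh-21/ceh-39/T26C11.9, which includes the X signal homeobox gene ceh-39, had 40.7, 38.4 and 89.5 FPKM, with p = 0.135 in the authors' deposited table. Both loci were at least 1.5-fold higher in the DCC mutant than in wild type, as were 43.2% of the 583 single coding loci of the left end.

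Genes of axon guidance and cell migration were the largest list with members, 9 of 16. All 9 had a higher value in the DCC mutant, with a median of 0.53 on the log2(FPKM + 1) scale. The 583 single coding loci had a median of 0.54, with 87.1% above 0. None of the 9 had a p under 0.05 in the authors' deposited table. The Robo receptor gene sax-3 (chrX:3451908-3465927, reverse strand) had 145 FPKM in wild type, 163 in 8rex deletion embryos and 216 in the DCC mutant. The planar polarity gene vang-1 had 50.9, 42.7 and 76.1, and mig-13, which guides neuroblast migration along the body, had 38.5, 31.8 and 48.4. The fibroblast growth factor gene egl-17 had 4.54, 3.88 and 9.64 FPKM, the largest ratio of the list at 2.12. The glypican gene lon-2 had 19.4, 14.3 and 27.05 FPKM and the Ryk receptor gene lin-18 had 11.9, 10.7 and 15.2. In the 8rex deletion, 6 of the 9 were below wild type and 3 above, with ratios from 0.736 for lon-2 to 1.13 for sax-3.

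Genes of neurons and synapses gave 6 of 25 listed, all 6 above 0 in the DCC mutant with a median of 0.62, and 3 of them at least 1.5-fold higher. Of the 583 single coding loci of the left end, 87.1% were above 0 and 43.2% at least 1.5-fold higher. The stomatin-like gene unc-1 (chrX:1057487-1062453, reverse strand) had 155 FPKM in wild type, 139 in 8rex deletion embryos and 243 in the DCC mutant. The locus of mec-2, a stomatin of touch receptor neurons, had 29.4, 21.7 and 56.0, and osm-5, needed for sensory cilia, had 21.8, 25.9 and 33.2. The guanine exchange factor gene aex-3 had 26.2, 28.6 and 41.9 FPKM and the dopamine receptor gene dop-1 had 3.54, 5.26 and 4.40. The DCC mutant was the highest genotype in the first 4 of these, and the 8rex deletion in dop-1.

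Transcription factors of development gave 4 loci of 3 genes, since daf-3 has 2 rows, all above 0 with a median of 0.74, from lin-32 at a ratio of 1.605 to fkh-9 at 1.82. Muscle genes gave 5 loci, all above 0 but with a median of 0.33 and none at 1.5-fold. Their ratios ran from 1.18 for unc-78, an actin-interacting protein gene, to 1.46 for the non-muscle myosin gene nmy-1 with 154, 163 and 224 FPKM. In membrane trafficking, the adaptor gene dpy-23 had 103 FPKM in wild type, 97.3 in 8rex deletion embryos and 174 in the DCC mutant, with p = 0.0552 in the authors' deposited table. Over all lists, 28 of 29 members were above 0, the exception being dpy-3. Of the 583 single coding loci of the left end 87.1% were above 0 and 43.2% at least 1.5-fold higher. In the upper level groups 135 and 137 of 140 were above 0. Of the 5 yolk genes listed, 0 were members: those found on the left of X, vit-2, vit-3, vit-4 and vit-5, were at or under 0.205 FPKM in each genotype.

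Gene families were also counted by name. Beside them, 87.1% of the 583 single coding loci were above 0, 43.2% at least 1.5-fold higher and 4.63% at least 1.5-fold lower. Of 12 neuropeptide loci 9 were above 0 in the DCC mutant, 7 of them at least 1.5-fold higher and 2 at least 1.5-fold lower, with a median of 0.76. Homeobox ceh genes gave 8 loci with 6 above 0 and a median of 0.81, and ceh-1 was lowest at a ratio of 0.475. The 3 bHLH genes and the 3 nuclear hormone receptor genes were all above 0, with medians of 0.70 and 0.56. Potassium channel genes gave 4 loci with 3 above 0 and a median of 0.18, none of them past 1.5-fold. In wild type these 4 lay between 1.52 FPKM (twk-26) and 5.13 (irk-2), where the log2(FPKM + 1) scale shrinks differences. The linc genes gave 5 loci with 2 above 0 and 3 below, and a median of -0.57. Among the 331 left-end loci annotated as ncRNA, 29.3% were above 0, with a median of 0. Apart from fox-1 and the ceh-93 locus, no locus of these lists and families had a p under 0.05 in the authors' deposited table.

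Along the chromosome the difference was present in every window, with 1 window lower than the others. In 1 Mb windows from the left end, the median of single coding loci was 0.52, 0.40, 0.55, 0.55, 0.57 and 0.56 over 84, 96, 94, 96, 103 and 110 loci. In 0.5 Mb windows the lowest median was 0.30, from 1.5 to 2 Mb, where 21 of 33 loci (63.6%) were above 0, and the highest was 0.58. Positions are those deposited, which for 186 of 955 single-gene loci lie more than 10 kb from the annotated start of the gene. Among single coding loci above 0 in all 3 genotypes, the longest run that was higher in the DCC mutant held 47 loci from sav-1 to tra-4 (chrX:2283998-2857603), with a median ratio of 1.54 and a range of 1.001 to 6.32. Loci listed at 0 are passed over in such runs, among them nlp-22 with 2.91, 3.53 and 0 FPKM. Over 559 pairs of neighbouring loci, Pearson's r between their log2 differences was 0.05 in the DCC mutant and 0.04 in the 8rex deletion, a description only, since neighbours share their libraries.

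**Figure D5:**
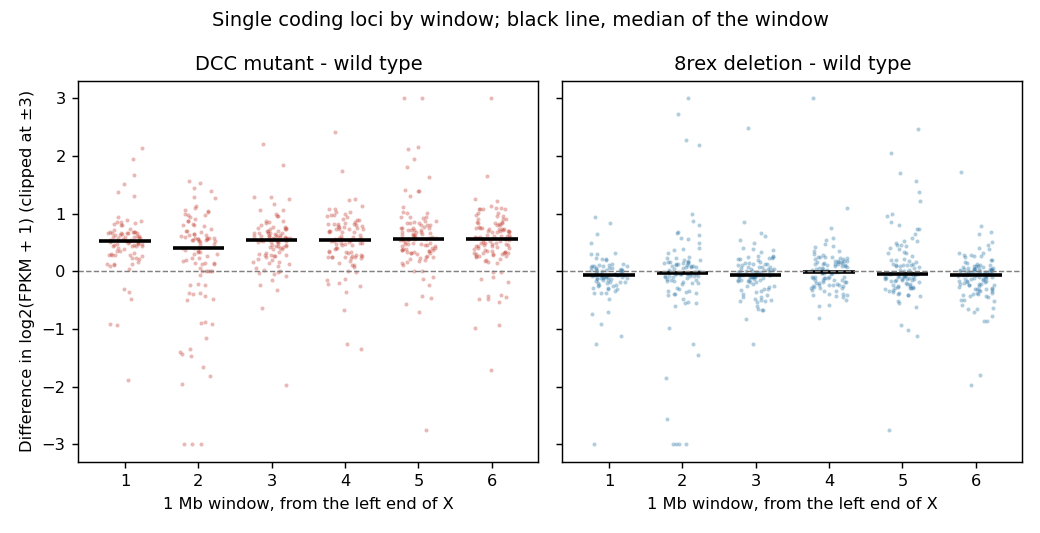
Difference in log2(FPKM + 1) from wild type, clipped at ±3, by 1 Mb window from the left end of X; each point is a single coding locus and each black line the median of its window. The DCC mutant's medians run from 0.40 to 0.57, lowest in the second window, and those of the 8rex deletion from -0.06 to -0.01.

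In the second window, which stood lowest, the loci without a higher value were mostly weakly expressed. Of its 96 single coding loci 28 (29.2%) were not above 0 in the DCC mutant, against 6 to 14 loci in each other window. Of the 28, 24 had a mean under 10 FPKM and 11 were listed at 0 in some genotype. In the other windows, in order, 5 of 6, 5 of 9, 7 of 10, 4 of 8 and 11 of 14 such loci had a mean under 10 FPKM. The 61 loci of the window that averaged 5 FPKM or more had a median of 0.57. The medians of the other windows at that level were 0.53 to 0.58. Their counts above 0, in order, were 64 of 66, 72 of 78, 72 of 78, 68 of 72 and 82 of 87. In the second window 53 of the 61 were above 0, so its share remained the lowest at that level too. With loci listed at 0 passed over, a run of 5 that were lower in the DCC mutant lay there, ins-39, fbxa-190, F56C3.8, F56C3.1 and F56C3.9 (chrX:1343758-1393991), with a median ratio of 0.374. The insulin-like peptide gene ins-39 had 8.68 FPKM in wild type, 9.44 in 8rex deletion embryos and 1.77 in the DCC mutant. No lower locus of the left end had a p under 0.05 in the authors' deposited table.

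Among single coding loci above 0 in all 3 genotypes that averaged 5 FPKM or more, T23F2.4 had the highest difference of DCC mutant minus wild type, with 5.37 FPKM in wild type, 5.20 in 8rex deletion embryos and 64.8 in the DCC mutant, a ratio of 12.1 with p = 0.259 in the authors' deposited table. The astacin protease gene nas-38 had 4.78, 3.76 and 21.4 FPKM, with p = 0.0802 in the authors' deposited table. The zinc finger gene ham-2, which acts in migration of the HSN neurons, had 2.31, 3.53 and 13.8, and the ETS factor gene ets-5 had 2.75, 2.60 and 10.8. In these genes only the DCC mutant was high. Since nas-38, ham-2 and ets-5 were under 5 FPKM in both other genotypes, they met the limit of 5 FPKM through the DCC mutant. At the other end, beside ins-39, were F07G6.8 with 13.2, 13.2 and 4.40 FPKM, K09C4.5 with 9.72, 12.7 and 3.49, and C14E2.7 with 12.4, 2.73 and 5.05. Loci listed at 0 are outside that set, such as F19G12.8 with 34.03 FPKM in wild type and 0 in both mutants, and H39E20.1 with 17.7 and again 0 in both.

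Deletion of the 8 rex sites left the left end of X close to wild type. The positions of the 8 sites were not among the data used here, so whether any lies in the first 6 Mb is not given. The median difference of 8rex deletion minus wild type was -0.0037 over all 1042 loci, with quartiles of -0.28 and 0.30, and -0.05 over the single coding loci. Above 0 were 483 (46.4%), against 47.6% of all loci. At least 1.5-fold higher were 199 against a background of 13.5%, which is 19.1% here, and at least 1.5-fold lower 154 (14.8%) against 10.8%. Loci listed at 0 made up 141 of the 199 and 107 of the 154. Over all loci they made up 1170 of 2115 higher and 919 of 1682 lower. Of the 726 loci above 0 in all 3 genotypes, 58 (7.99%) were higher and 47 (6.47%) lower. These shares were near the 7.31% and 5.90% of all such loci. Of the 583 single coding loci, 249 (42.7%) were above 0 against 47.3%, 39 (6.69%) were at least 1.5-fold higher against 7.8% and 38 (6.52%) at least 1.5-fold lower against 6.43%. The median over single coding loci was -0.03 in the middle and at the right end of X and -0.01 on the autosomes.

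The ratio of 8rex deletion to wild type had a median of 0.97 over the 560 loci, with quartiles of 0.84 and 1.10, and lay between 0.8 and 1.25 at 379 (67.7%). The lowest of the 3 values was that of the 8rex deletion at 308 loci, of wild type at 208 and of the DCC mutant at 44. The 8rex deletion was lowest at 329 of 627 such loci in the middle of X and 289 of 532 at its right end. On the autosomes, where the DCC mutant was less often highest, it was lowest at 2663 of 8671. In the highest of the 4 level groups, 43 of 140 (30.7%) were above 0 with a median of -0.06, and 128 (91.4%) had a ratio between 0.8 and 1.25. The corresponding shares above 0 were 33.8% in the middle of X, 32.2% at the right end and 42.0% on the autosomes, with medians of -0.05, -0.04 and -0.02. The lowest level group went the other way, with 78 of 140 (55.7%) above 0 and a median of 0.12. Its medians elsewhere were 0.10 in the middle of X, 0.14 at the right end and 0.05 on the autosomes. Taken over all levels, the coding loci of the left end had values slightly below wild type more often than above. The same held in the middle and at the right end of X and, less strongly, on the autosomes. The size of the difference cannot be set against a replicate spread.

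The authors' deposited table tested 520 of the loci in this comparison and gives 2 (0.385%) with p under 0.05, where 0.459% of all tested loci have one. Of these 2, 1 was higher and 1 lower, against 0.288% and 0.171% of all tested loci, and neither holds a coding gene, where 0.188% of all tested single coding loci have such a p. The locus tts-1/F09E10.14 (chrX:1504131-1504998, reverse strand) holds tts-1, a long non-coding RNA known to bind ribosomes in long-lived mutants. It had 44.2 FPKM in wild type, 219.9 in 8rex deletion embryos and 29.3 in the DCC mutant, with p = 5e-05 and q = 0.0632 in the authors' deposited table. That is a 4.97-fold higher value in the 8rex deletion alone, and the DCC mutant lay below wild type. K02G10.14, an ncRNA gene (chrX:4699793-4699916, forward strand), had 127 FPKM in wild type, 14.6 in 8rex deletion embryos and 21.6 in the DCC mutant, with p = 0.0384 in the authors' deposited table. Both mutants were low at this locus.

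In the same set of single coding loci, the homeobox gene ceh-63 (chrX:3672274-3674058, reverse strand) had the highest difference of 8rex deletion minus wild type, with 0.639 FPKM in wild type, 29.8 in 8rex deletion embryos and 0.380 in the DCC mutant. The authors' deposited table gives it a p of 1, read here as not tested. The gene ceh-63 met the limit of 5 FPKM through the 8rex deletion alone. Next were C25F6.6 with 3.19, 12.9 and 7.86 FPKM and R160.3 with 8.94, 18.9 and 6.21. On the lower side, ZC13.1 (chrX:877239-879884, forward strand) had 11.1 FPKM in the 8rex deletion against 114 in wild type, and C03F11.2 had 8.67 against 37.0 and 79.6 in the DCC mutant. These loci did not share a direction in the DCC mutant. With loci listed at 0 passed over, the longest run of coding loci below wild type held 17 loci from ZC449.1 to mans-3 (chrX:5024420-5168783), with a median ratio of 0.822, and the longest run above it held 10 loci from aakg-3 to cnnm-3 (chrX:2976448-3045847), with a median ratio of 1.32. In the DCC mutant the median ratios of those runs were 1.38 and 1.56.

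Set directly against each other, the mutants differed by about as much as the DCC mutant and wild type. The median of DCC mutant minus 8rex deletion was 0.50 over all 1042 loci and 0.59 over the single coding loci. Above 0 were 703 (67.5%) against 48.3% of all loci, at least 1.5-fold higher 425 (40.8%) against 18.7%, and at least 1.5-fold lower 221 (21.2%) against 20.8%. For single coding loci, 508 (87.1%) were above 0, 292 (50.1%) were at least 1.5-fold higher and 38 (6.52%) at least 1.5-fold lower, against 52.9%, 19.3% and 15.2%. The deposited table holds no p for this pair, and both differences from wild type share the same wild-type value.

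At the edges of the choice, the last loci inside 6 Mb shared a deposited start at 5.985 Mb. They were inx-3/klp-13 with 381 FPKM in wild type, 349 in 8rex deletion embryos and 544 in the DCC mutant, F22F4.4 with 42.9, 37.04 and 56.9, and F22F4.5 with 1.51, 0.933 and 3.07. The first loci outside started at 6.004 Mb. There sups-1 had 65.4, 58.7 and 90.2 FPKM, C09B8.3 had 8.73, 7.64 and 10.5, and C09B8.16, an ncRNA gene, was listed at 0 in wild type and in the DCC mutant. Just inside the minimum level were R160.8 with a mean of 1.007 FPKM, F11D5.11 with 1.03 and WBGene00022860 with 1.03, and just under it AH9.4 with 0.999, linc-112 with 0.973 and F46G11.16 with 0.966.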

How the data were processed

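Per the submitters' processing notes, cutadapt 1.2.1, TopHat2 2.1.1, Cufflinks 2.2.1 and genome build ce11 were used; the sources used here give no roles, settings or strand. A single table was deposited by the authors, of 40669 loci with, per the file headers, 1 FPKM per genotype, a log2 fold change, a p-value and a q-value for each mutant over wild type. The replicates had been combined by the authors, with weights not given. Rows without a gene identifier (242) were left out. The deposited start is counted from 0 and can be that of a stretch shared by several loci; gene types, symbols and printed coordinates (counted from 1) come from Ensembl release 115 of the same assembly. Differences were taken here as log2(FPKM + 1) with pandas 2.3.3 and numpy 2.4.6 on Python 3.11.15, and intervals with scipy 1.17.1. The medians were checked on simulated data. A p of 1 was taken as not tested.

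The loci and gene lists were chosen with earlier results of these data known. Named were loci at an authors' p under 0.05, the 8 highest and 8 lowest differences of the DCC mutant and 5 of each for the 8rex deletion among single coding loci above 0 in all 3 genotypes and averaging 5 FPKM or more, the 10 of highest level, listed genes, loci at the edges of the choice and up to 5 listed at 0. The loci of the second window and of the highest level group were named after their values were seen. Alternatives were other pseudocounts, filters, edges, windows, locus types and centring.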

Additional observations from a re-analysis of the deposited data

How the results depend on the processing

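No paired analysis was possible because each genotype has 1 combined value; for the same reason no replicate or collection was left out. The planned description of a sequence motif was not run, since no genome sequence was used here. No median of the DCC mutant changed sign under any alternative run; 58 of the values, given below, moved by more than counting error over loci or by 1.5 times, and 57 did not.

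For DCC mutant minus wild type, the median was 0.56 without a pseudocount, 0.33 without a filter, 0.50 at a mean of 5 FPKM, 0.54 for single coding loci, 0.53 without loci listed at 0 and 0.58 for single coding loci above 0 without a pseudocount, an alternative chosen after seeing the data. The percent above 0 was 84.4, 62.4, 74.1, 87.1, 84.4 and 89.3 in that order, and 77.0 with the autosomal median subtracted. The count at least 1.5-fold higher was 252 for single coding loci. The count lower was 63 without a pseudocount, 104 at 5 FPKM, 27 for single coding loci, 49 without zeros and 28 for the added alternative.

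For 8rex deletion minus wild type, the median was -0.040 without a pseudocount, -0.038 without zeros, -0.048 for single coding loci, -0.050 for the added alternative and 2.4e-05 with centring. The percent above 0 was 43.3 at 5 FPKM, 42.7 for single coding loci, 50.0 with centring and 42.3 for the added alternative. The count higher was 81 without a pseudocount, 114 at 5 FPKM, 39 for single coding loci, 58 without zeros and 46 for the added alternative; the count lower was 67, 94, 38, 47 and 46. The count at an authors' p under 0.05 was 0 for single coding loci in the authors' deposited table, because both loci hold non-coding RNA.

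For DCC mutant minus 8rex deletion, the median was 0.60 without a pseudocount, 0.40 without a filter, 0.55 at 5 FPKM, 0.59 for single coding loci, 0.57 without zeros, 0.54 with centring and 0.62 for the added alternative. The percent above 0 was 84.0, 63.3, 74.5, 87.1, 84.0, 74.3 and 89.3. The count lower was 74 without a pseudocount, 125 at 5 FPKM, 38 for single coding loci, 68 without zeros and 30 for the added alternative. The cause of these changes was not tested.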
